A study of Homo sapiens with 15 samples.

Results

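The genes described here code for 54 proteins that the liver is known to release into blood plasma. They were chosen by name from the 63241 genes of the deposited table, with earlier results of these data known, and were sorted by role into 11 carriers and binding proteins, 17 coagulation and fibrinolysis proteins, 9 complement proteins, 9 acute phase proteins and 8 other inhibitors and matrix-binding proteins. All 54 were found in the table. Genes with 1 TPM or more in 3 or more libraries were tested, which held for 22 of the 54 (40.7%), against 12950 of all genes (20.5%). TPM gives a gene's share of all transcripts, corrected for transcript length, so levels can be compared between genes.

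The study sequenced polyadenylated RNA from 15 cultures labelled as HepG2, a line derived from a human hepatoma and used as a model of hepatocytes, to study how a pigment acts on fat storage. There were 5 groups of 3 biological replicates. NC was the blank control, FFA was a high-fat model given free fatty acids at 500 µM, and FCL, FCM and FCH had the same fatty acids together with cyanidin-3-rutinoside (C3R), a plant anthocyanin, at 25, 50 and 100 µM. The sources used here do not name the fatty acids, their carrier, the solvent of C3R or the treatment time, and there was no group with C3R alone.

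Hepatocytes secrete most plasma proteins through the classical route of endoplasmic reticulum and Golgi. Albumin and other carriers bind lipids, hormones and metals, coagulation factors circulate as inactive zymogens that are held in check by serpins, and complement proteins mark and lyse targets. In the acute phase response, interleukin 6 acts through STAT3, and interleukin 1 through NF-kappa-B and C/EBP factors, to raise genes such as CRP, SAA1, SERPINA3, C3 and CFB. Albumin and transthyretin fall in that response.

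The RNA went against the labelled cell type at its defining markers. Of 6 hepatocyte markers, ALB averaged 0.666 TPM over the 15 libraries, HNF4A 0.27 TPM, TTR 0.043 TPM and APOB 0.04 TPM, while APOA1 averaged 10.1 TPM and SERPINA1 10.5 TPM. Of the hepatoma markers, AFP averaged 0.023 TPM and GPC3 0.24 TPM. Markers of other liver cells gave no uniform picture either. KRT7, a keratin of bile ducts and other epithelia, reached between 1626 and 2781 TPM, whereas its partner KRT19 averaged 0.98 TPM and EPCAM 0.18 TPM. Of 8 stellate cell markers 5 were tested, and the 8 summed to between 46.9 and 79.5 TPM per library, mostly COL1A1, a collagen chain, at 43.2 TPM and ACTA2, smooth muscle actin, at 11.4 TPM on average, while COL1A2, the partner chain of COL1A1, averaged 0.071 TPM. The 6 hepatocyte markers summed to between 15.2 and 29.3 TPM. Among leukocyte markers CD68, a lysosomal protein, averaged 149 TPM and CSF1R 3.58 TPM, with PTPRC at 0.01 TPM at most, CD14 at 0.15 TPM on average and CD3E at 0 in every library. The identity of the cells was not tested, and the values below are those of the libraries as labelled.

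**Figure D1:**
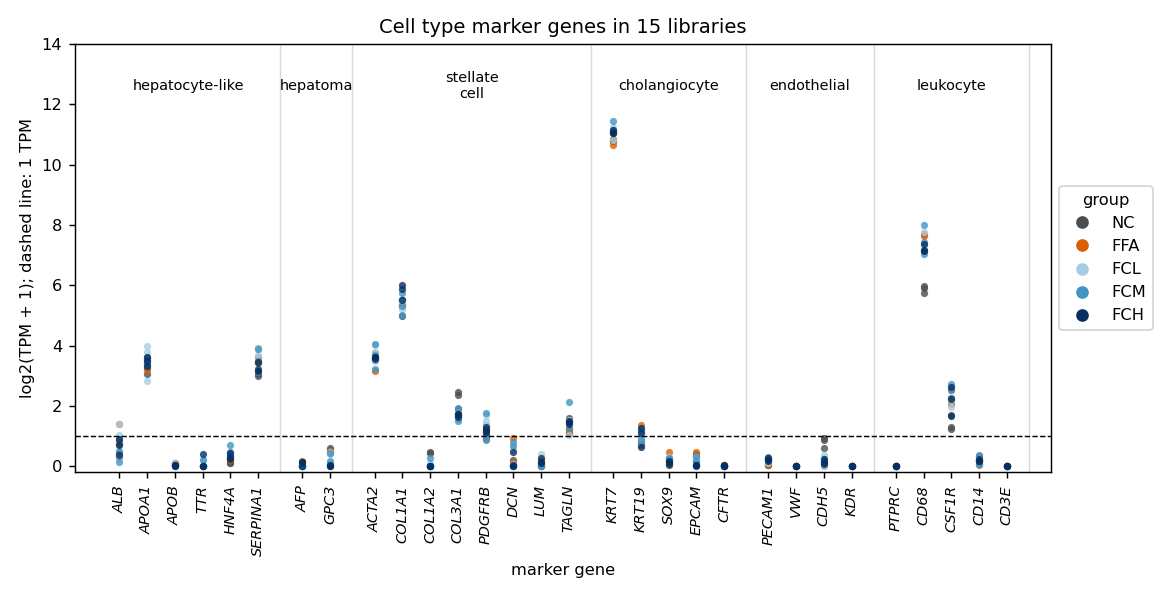
Levels of 30 cell type marker genes, as log2(TPM + 1) on the vertical axis, in the 15 libraries coloured by group, with the marker gene on the horizontal axis. ALB, APOB, TTR, HNF4A and AFP lie near or under the dashed line of 1 TPM, while KRT7 lies above 1626 TPM in every library, and CD68 is lowest in the 3 NC libraries.

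Each library held 1 TPM or more of 11268 to 12293 genes. Read depth cannot be recovered from TPM, so no counting error is given. The deposited table is named as batch-handled, with no sample label describing the step, and its values show a shift of FCH replicate 3 towards the other 2 FCH libraries in 19 of the 22 tested genes described here, so the spread within FCH is narrowed in these genes. FCM replicate 3 had the lowest weight of all libraries (0.182) when libraries were weighted by their spread. Calls among the 22 tested genes that were lost without either library are given with their values without it. The labels call the replicates biological without saying whether they were cultured apart, so p-values reflect only how much the deposited values of these 15 cultures varied. The main model shares its spread over all 15 libraries. The narrowed FCH spread thus enters the standard error (SE) of every comparison, also those without FCH.

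The levels were low throughout. The 54 genes together held between 65.8 and 115 TPM of a library, at most 0.0115% of the total. Only 4 averaged over 5 TPM, namely C3 at 12.1, SERPINA1 at 10.5, F12 at 10.4 and CFB at 5.74 TPM, and 38 averaged under 1 TPM, 16 of these under 0.1 TPM. F11 and CRP were listed at 0 in all 15 libraries. C3, the highest, stood above 58.0% of all tested genes, ALB above 1.75%. Complement passed the filter in 7 of 9 genes, the other inhibitors and acute phase proteins in 4 of 8 and 4 of 9, coagulation in 5 of 17 and the carriers in 2 of 11. ALB, C8G and SERPINA5 passed with 3 libraries and ORM1, ORM2 and SERPING1 with 4, whereas APOH, HP, SAA1, ITIH3 and ITIH4 failed with 1 library each.

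**Figure D2:**
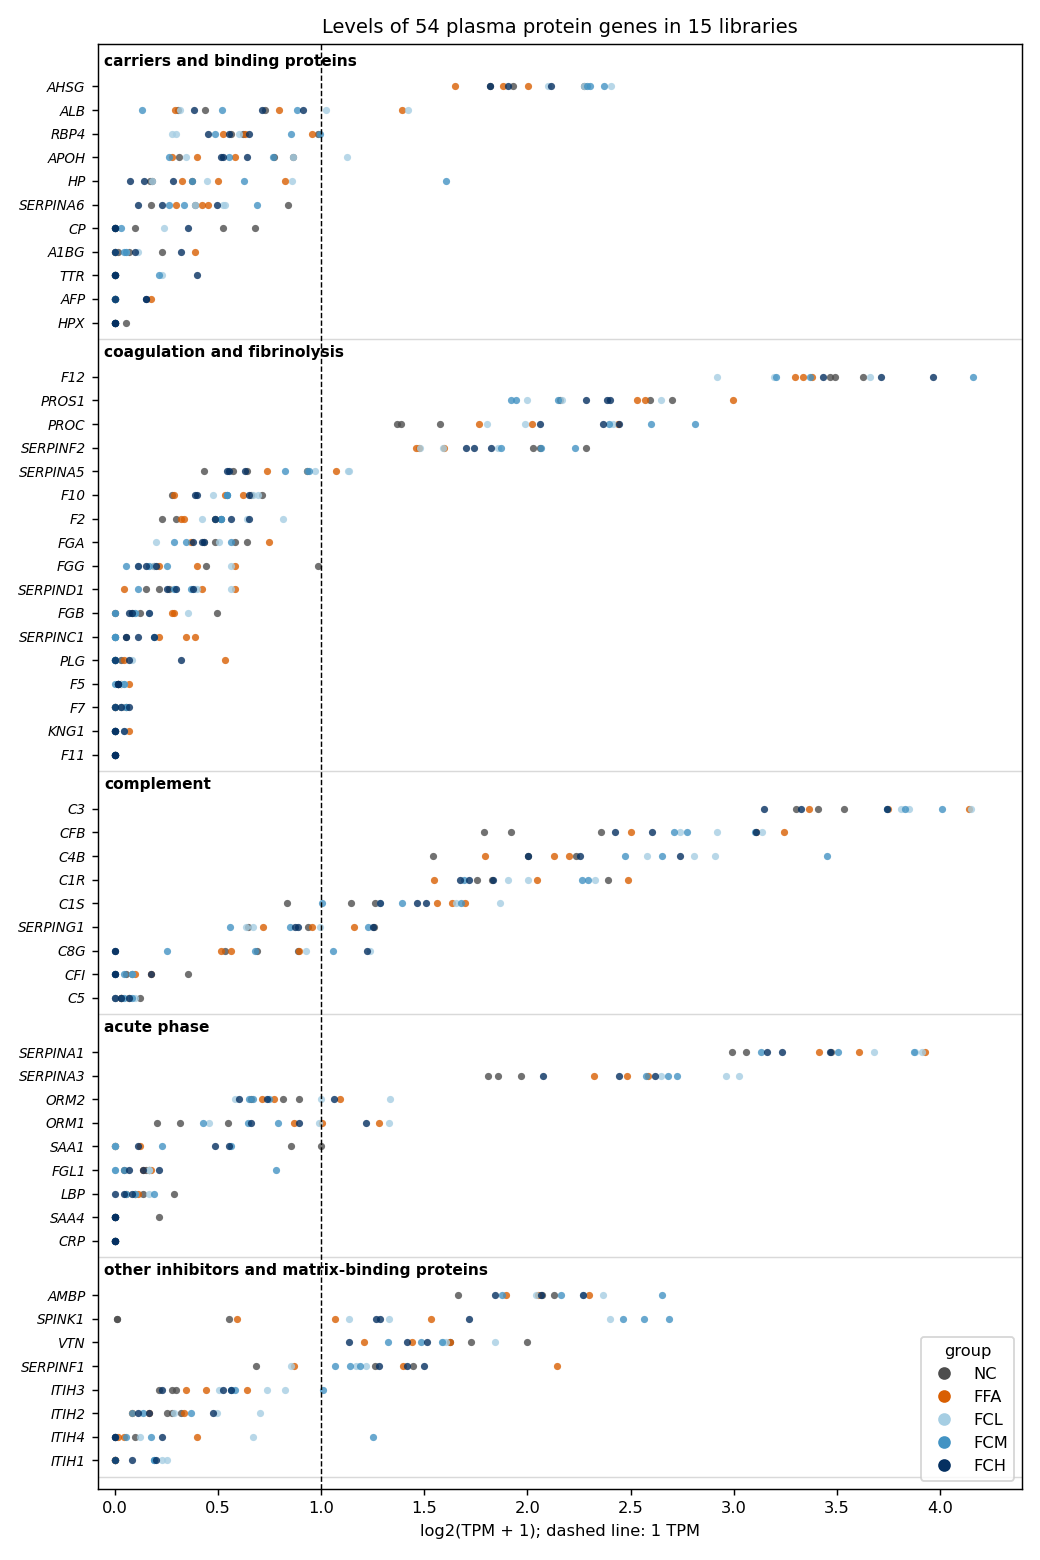
Levels of the 54 plasma protein genes, as log2(TPM + 1) on the horizontal axis, with 1 row per gene grouped by role and 1 point per library coloured by group. Of the 54 genes, 38 average under 1 TPM, left of the dashed line, and C3, F12 and SERPINA1 lie farthest right.

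Changes were tested with limma on log2(TPM + 1). At levels this low that scale gives smaller changes than the ratio of the TPM would. Benjamini-Hochberg adjustment ran over all 12950 tested genes, and called means an adjusted p under 0.05. Since the filter admits genes through the groups where they are high, the counts below describe the 22 genes and are no test of the class. In FFA against NC, CFB and SERPINA3 rose and SERPINF2 fell, 3 of 22 genes, where 7.37% of all tested genes were called, 5.47% as rises and 1.91% as falls. An unadjusted p under 0.05 was found for 9 of the 22, beside 21.5% of all tested genes. In FCL against FFA none of the 22 was called, where 0.00772% of all genes were, and 4 had an unadjusted p under 0.05, beside 5.15% of all genes. In FCM against FFA only SPINK1 was called, as a rise, where 1.9% of all genes were called, 0.0695% as rises and 1.83% as falls, and 6 had an unadjusted p under 0.05, beside 19.1% of all genes. In FCH against FFA none was called, where 0.193% of all genes were (0.108% higher and 0.0849% lower), and SERPINA5 alone had an unadjusted p under 0.05, beside 15% of all genes. The median log2 change of the 22 genes was 0.28 in FFA against NC, against 0.06 over all tested genes, and 0.10, 0.02 and -0.08 in FCL, FCM and FCH against FFA, against -0.01, -0.07 and -0.07.

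Set against NC rather than FFA, which reuses the same NC libraries in each comparison, more genes were called, all as rises. In FCL against NC these were SERPINA3, SPINK1, CFB and SERPINA5, 4 of 22 beside 9.07% of all genes (6.51% higher and 2.56% lower). FCM against NC called SPINK1, PROC, SERPINA3, CFB and C4B, 5 of 22 beside 13% of all genes (6.34% higher and 6.7% lower). FCH against NC called PROC and SPINK1, 2 of 22 beside 5% of all genes (3.02% higher and 1.98% lower). The 7 genes called in any comparison were thus SPINK1, SERPINA3, PROC, CFB, SERPINF2, C4B and SERPINA5. In bulk RNA, a change in the share of cells that express a gene and a change in its RNA per cell cannot be told apart.

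**Figure D3:**
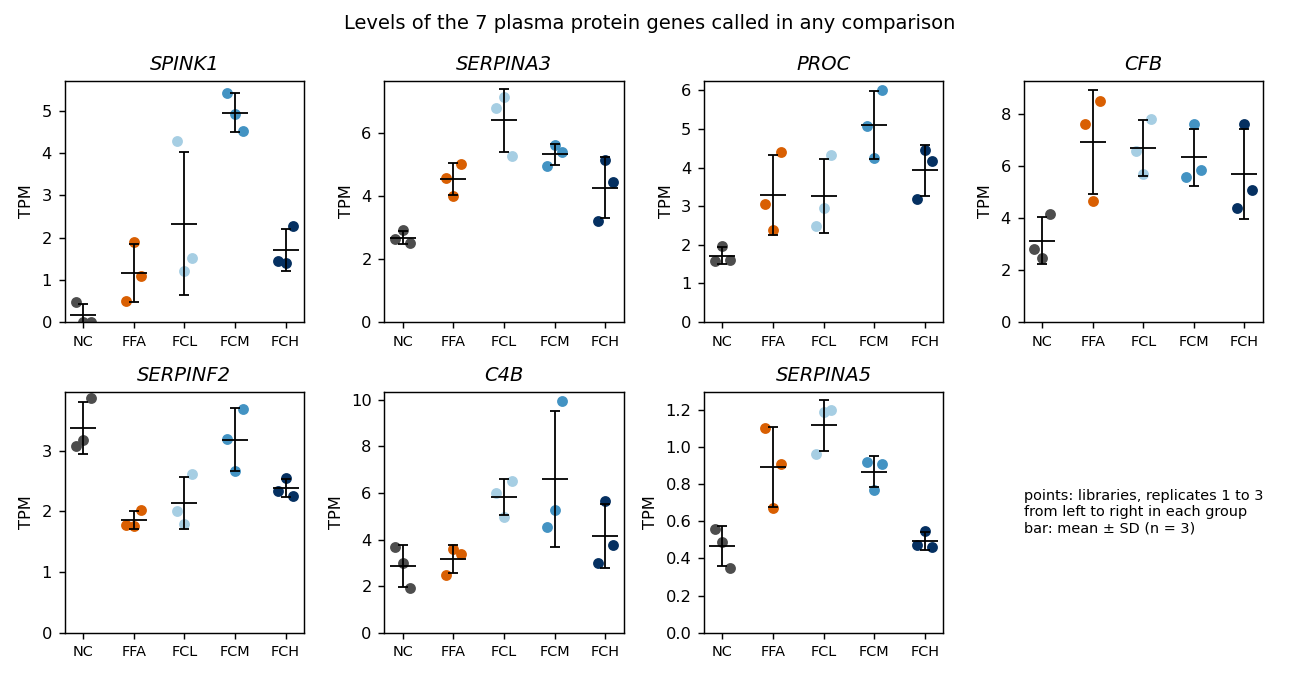
TPM of the 7 plasma protein genes called in any comparison, with 1 point per library and bars for the mean ± SD (n = 3) in each of the 5 groups. SPINK1 lies between 4.52 and 5.43 TPM in FCM, above every other library, and SERPINA3 and CFB lie lowest in NC.

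Whether the 3 libraries of one group all lay above or below those of another was counted as a further description. Groups did not overlap for 9 of the 22 genes in FFA against NC, where the same held for 29.7% of all tested genes. They did not overlap for 3 in FCL, 6 in FCM and 5 in FCH against FFA, where the share of all genes was 7.73%, 23.9% and 33.3%. Against NC the counts were 10 in FCL, 10 in FCM and 8 in FCH, beside 24.7%, 30.5% and 34.7% of all genes. The FCH shares include the narrowed spread that FCH replicate 3 brings.

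Among the carriers, only 2 of 11 were tested and neither was called in any comparison. ALB (ENSG00000163631), the main protein of plasma and a carrier of fatty acids, had 0.355, 0.235 and 0.655 TPM in NC, 1.62, 0.225 and 0.735 TPM in FFA, 1.67, 1.03 and 0.245 TPM in FCL, 0.435, 0.0947 and 0.845 TPM in FCM, and 0.305, 0.885 and 0.641 TPM in FCH. Its groups overlapped in every comparison, and its SD of 0.709 TPM in FFA and 0.716 TPM in FCL was close to the means of 0.861 and 0.985 TPM. The log2 change in FFA against NC was 0.34 (SE 0.31, adjusted p = 0.592 by limma). AHSG, fetuin-A, a carrier of calcium phosphate, had 3.83, 3.28 and 4.30 TPM in FCL and 4.17, 3.89 and 3.93 TPM in FCM, against 2.13, 2.68 and 3.01 TPM in FFA. All FCL and all FCM libraries lay above all FFA libraries, but the changes of 0.41 and 0.48 did not pass the test (SE 0.17 each, adjusted p = 0.901 and 0.139 by limma). AHSG had 3.84, 2.53 and 2.81 TPM in NC and 3.33, 2.52 and 2.74 TPM in FCH, and both overlapped with FFA.

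The other 9 carriers were measured near or under the lower end of the scale. RBP4, which carries retinol, averaged 0.567 TPM and stayed under 1 TPM in every library. APOH, which binds anionic phospholipids, and HP, which binds free haemoglobin, exceeded 1 TPM in 1 library each, at 1.18 TPM in FCL and 2.04 TPM in FCM. HP has a near-identical copy, so its reads may be divided. SERPINA6, which carries cortisol, averaged 0.340 TPM. CP, a copper-bound ferroxidase, averaged 0.106 TPM and A1BG 0.070 TPM. The thyroxine carrier TTR and the fetal carrier AFP were at 0 in 12 of 15 libraries each, and HPX, which binds haem, in 14 of 15.

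Promoter sequence is shown for 3 genes, ALB because its level goes against the label, and CFB and SPINK1 because they had the largest called change in FFA against NC and in FCM against FFA. The windows run from 250 bases before to 50 bases after the RefSeq start on GRCh38.p14, are printed 5′ to 3′ in the direction of the gene, and hold motif matches in capitals. They lie at chr4:73404037-73404336 on the plus strand for ALB, chr6:31945845-31946144 on the plus strand for CFB and chr5:147831622-147831921 on the minus strand for SPINK1. The motifs searched on both strands were TTGCNNAA, a C/EBP pattern, and TTCNNNGAA, a STAT pattern.
ALB: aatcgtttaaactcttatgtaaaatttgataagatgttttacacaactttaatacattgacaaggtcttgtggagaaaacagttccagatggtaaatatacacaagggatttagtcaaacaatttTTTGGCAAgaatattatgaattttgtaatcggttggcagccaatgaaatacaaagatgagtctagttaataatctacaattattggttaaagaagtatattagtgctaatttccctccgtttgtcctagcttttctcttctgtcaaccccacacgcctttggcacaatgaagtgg
CFB: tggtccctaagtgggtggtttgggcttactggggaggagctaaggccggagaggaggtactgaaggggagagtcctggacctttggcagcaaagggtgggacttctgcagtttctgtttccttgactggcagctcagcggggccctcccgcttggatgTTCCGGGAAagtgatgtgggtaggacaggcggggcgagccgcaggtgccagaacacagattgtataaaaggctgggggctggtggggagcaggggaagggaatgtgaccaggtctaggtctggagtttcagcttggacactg
SPINK1: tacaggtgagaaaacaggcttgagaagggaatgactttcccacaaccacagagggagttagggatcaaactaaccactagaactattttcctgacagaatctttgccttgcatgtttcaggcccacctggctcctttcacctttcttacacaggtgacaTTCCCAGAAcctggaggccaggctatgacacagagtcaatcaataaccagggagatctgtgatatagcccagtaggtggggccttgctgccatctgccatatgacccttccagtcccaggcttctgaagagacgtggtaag
The ALB window held a C/EBP pattern from base -125, counted from the start site, and no STAT pattern. CFB and SPINK1 each held 1 STAT pattern, from base -92 and from base -91, and no C/EBP pattern.

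The table of promoters held windows for 38 of the 54 genes, 48 windows in all. The C/EBP pattern occurred in 14 of these 48 windows (29.2%), against 10.5% of all 35116 windows of the same length, and the STAT pattern in 13 (27.1%, against 7.66%). Of the 17 windows of tested genes, 6 held the C/EBP pattern (35.3%), and of the 31 windows of untested genes 8 did (25.8%). The STAT pattern was in 6 of the 17 windows of tested genes, those of C1R, CFB, PROS1, SERPINA5, SPINK1 and VTN (35.3%), and in 7 of the 31 windows of untested genes (22.6%). A match of these letters is a description of the window and not evidence of binding.

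In coagulation and fibrinolysis, the zymogens and clot proteins were mostly under 1 TPM, and 4 of the 5 tested genes code for inhibitors or anticoagulants. The other is F12 (ENSG00000131187), which starts the contact pathway and averaged 10.4 TPM. It had 8.83, 9.39 and 9.09 TPM in FFA, against 10.2, 11.4 and 10.1 TPM in NC, so all FFA libraries lay lower, but the change of -0.19 was not called (SE 0.23, adjusted p = 0.695 by limma). Under C3R it had 8.16, 6.57 and 11.6 TPM in FCL, 9.34, 8.22 and 16.9 TPM in FCM, and 14.6, 9.79 and 12.1 TPM in FCH. FCM replicate 3 held the highest F12 level of all, and all FCH libraries lay above all FFA libraries (log2 change 0.37, adjusted p = 0.486).

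PROC (ENSG00000115718), the zymogen of protein C, which inactivates factors V and VIII, was lowest in NC and highest in FCM. It had 1.58, 1.98 and 1.62 TPM in NC, 3.06, 2.40 and 4.42 TPM in FFA, 2.50, 2.97 and 4.33 TPM in FCL, 5.07, 4.26 and 6.02 TPM in FCM, and 3.18, 4.45 and 4.16 TPM in FCH. Every library given fatty acids lay above every NC library. The log2 change against NC was 1.16 in FCM (SE 0.21, adjusted p = 0.00291 by limma) and 0.85 in FCH (adjusted p = 0.0287), both called, and 0.63 in FFA and in FCL (adjusted p = 0.0850 and 0.0750). The call in FCM stood in all 11 alternatives that tested it and without any 1 library. That in FCH was lost under 2 of 11 alternatives, without any 1 NC library, without FCH replicate 2 and without FCH replicate 3 (0.81, adjusted p = 0.115). FCM against FFA gave 0.53 (SE 0.21, adjusted p = 0.181), with overlapping groups.

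PROS1, protein S, the cofactor of protein C, was not called in any comparison. It had 3.43, 2.79 and 2.85 TPM in FCM, against 6.98, 4.78 and 4.95 TPM in FFA, a log2 change of -0.70 and an SE of 0.20 (limma, adjusted p = 0.0771) with no overlap. PROS1 had 2.99, 5.26 and 3.50 TPM in FCL, 3.88, 4.23 and 4.29 TPM in FCH, and 3.47, 5.05 and 5.51 TPM in NC. The change in FCM against FFA was called when TPM were rescaled by median of ratios, when libraries were weighted, and without NC replicate 1 or FCL replicate 2. The weights gave FCH replicate 3, the library shifted towards the other FCH libraries, the highest weight, 17.1. The part of this weight in the PROS1 call was not tested. PROS1 has a near-identical pseudogene, so its reads may be divided.

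SERPINF2 (ENSG00000167711), alpha-2-antiplasmin, which inhibits plasmin, was the gene that fell. It had 1.78, 1.75 and 2.02 TPM in FFA, against 3.07, 3.17 and 3.86 TPM in NC, a log2 change of -0.61 and an SE of 0.16 (limma, adjusted p = 0.0305) with all FFA libraries lower. The call was lost under 1 of 11 alternatives, without any 1 NC or FFA library, and without FCH replicate 3 at the same change (adjusted p = 0.0543). SERPINF2 had 2.01, 1.79 and 2.62 TPM in FCL, 3.19, 2.66 and 3.69 TPM in FCM, and 2.34, 2.54 and 2.26 TPM in FCH. All FCM and all FCH libraries lay above all FFA libraries, and neither change was called (0.55 and 0.25, adjusted p = 0.0813 and 0.502).

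SERPINA5 (ENSG00000188488), protein C inhibitor, was low in every library. It had 0.960, 1.19 and 1.20 TPM in FCL, against 0.560, 0.490 and 0.350 TPM in NC, a log2 change of 0.53 and an SE of 0.16 (limma, adjusted p = 0.0480). It had 1.10, 0.670 and 0.910 TPM in FFA, 0.920, 0.770 and 0.910 TPM in FCM, and 0.470, 0.550 and 0.460 TPM in FCH. All FCH libraries lay below all FFA libraries (log2 change -0.34, adjusted p = 0.330). The 3 libraries that brought SERPINA5 past the filter were 1 FFA and 2 FCL libraries, and the call was lost without any 1 of 12 of the 15 libraries, FCH replicate 3 among them (0.53, adjusted p = 0.0789, and between 0.0120 and 0.138 over all alternatives). With libraries left out not counted, the call was lost under 5 of 11 alternatives.

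The 12 untested coagulation genes included prothrombin and fibrinogen, from which the clot is made. The fibrinogen chains FGA, FGB and FGG averaged 0.377, 0.117 and 0.257 TPM, prothrombin, F2, 0.407 TPM and the factor X gene F10 0.455 TPM. SERPIND1 and SERPINC1, the thrombin inhibitors heparin cofactor II and antithrombin, averaged 0.251 and 0.079 TPM. Plasminogen, PLG, averaged 0.057 TPM, F5 0.017 TPM, F7 0.015 TPM and kininogen, KNG1, 0.007 TPM. No further change can be read at these levels. All 4 genes listed under the vitamin K cycle, which serves the carboxylation of protein C, protein S and prothrombin, were tested. The list includes FURIN, a protease that is not part of the cycle itself. In the main model none was called in any of the 7 comparisons, where between 0.00772% and 13% of all tested genes were. Without FCM replicate 3, FURIN was called higher in FCL against NC. VKORC1, the reductase of the cycle, averaged 334 TPM and GGCX, the carboxylase, 33.2 TPM. Unadjusted p-values under 0.05 numbered 1 of 4 in FCM and in FCH against FFA, 2 in FCM and 1 in FCH against NC, and 0 elsewhere. Over all tested genes the shares in FCM and FCH were 19.1% and 15% against FFA, and 30.1% and 20.2% against NC.

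Complement was the class with the largest share of tested genes, 7 of 9, and held the gene with the highest mean level, C3. C3 (ENSG00000125730), the protein on which all routes of activation converge, had 16.7, 9.30 and 12.4 TPM in FFA, against 10.6, 8.88 and 9.62 TPM in NC, with overlapping groups and a log2 change of 0.34 and an SE of 0.20 (limma, adjusted p = 0.354). It had 13.0, 16.8 and 13.4 TPM in FCL, 13.2, 12.4 and 15.1 TPM in FCM, and 12.4, 7.87 and 9.04 TPM in FCH. All FCL and all FCM libraries lay above all NC libraries, but neither change against NC was called (0.52 and 0.45, adjusted p = 0.113 and 0.143). FCH overlapped with both NC and FFA.

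CFB (ENSG00000243649), factor B, the protease of the alternative pathway, rose in FFA. It had 7.61, 4.66 and 8.47 TPM in FFA, against 2.79, 2.46 and 4.13 TPM in NC, a log2 change of 0.93 and an SE of 0.23 (limma, adjusted p = 0.0249) with no overlap. CFB had 6.56, 5.67 and 7.79 TPM in FCL, 5.55, 7.58 and 5.83 TPM in FCM, and 4.36, 7.61 and 5.07 TPM in FCH. In the deposited values every library given fatty acids lay above every NC library. With the inferred batch adjustment undone, FCH replicate 3 had 3.97 TPM, below the 4.13 TPM deposited for NC replicate 3. The changes against FFA were -0.02, -0.09 and -0.24 in FCL, FCM and FCH (SE 0.23 each, adjusted p = 0.992, 0.876 and 0.685), and those against NC 0.91, 0.84 and 0.69, of which the first 2 were called (adjusted p = 0.0253 and 0.0303). The call in FFA was lost without NC replicate 1 or 2 or FFA replicate 1 or 3, that in FCL without NC replicate 1 or 2 or FCL replicate 3, and that in FCM without NC replicate 1 or 2, FCM replicate 2 or FCM replicate 3 (0.88 without the last, adjusted p = 0.0605). Of 12 alternatives, 2 lost the call in FFA, 3 that in FCL and 4 that in FCM. CFB lies beside C2, with which it has readthrough transcripts, so some of its reads may be shared. C2 itself had 1.55 ± 0.66 TPM in FFA and 0.89 ± 0.20 TPM in NC (SD, n = 3 each) and was not called.

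C4B (ENSG00000224389), a chain of the classical and lectin pathways, had 5.99, 4.98 and 6.50 TPM in FCL and 4.55, 5.28 and 9.94 TPM in FCM, against 2.47, 3.60 and 3.37 TPM in FFA. The groups did not overlap, and the log2 changes of 0.72 and 0.82 were not called (SE 0.26 each, adjusted p = 0.901 and 0.109 by limma). Set against NC, with 3.70, 3.01 and 1.91 TPM, FCM gave 0.93 and was called (adjusted p = 0.0322). Without FCM replicate 3, which held the highest C4B level, this was 0.64 and not called (adjusted p = 0.133). The call was also lost without NC replicate 2 or 3 and under 4 of 11 alternatives. FCH had 3.00, 5.67 and 3.77 TPM and overlapped with FFA and NC. C4A is a near-identical copy of C4B, and how reads were divided between them is uncertain. C4A averaged 4.14 TPM, with 4.39 ± 1.52 TPM in FCL, 4.30 ± 1.74 TPM in FCM and 4.71 ± 1.38 TPM in FFA (SD, n = 3 each), and was not called in any comparison.

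The proteases that start the classical pathway were lower. C1S had 2.10, 1.95 and 2.24 TPM in FFA, against 0.784, 1.21 and 1.39 TPM in NC, with no overlap and a log2 change of 0.55 that was not called (SE 0.21, adjusted p = 0.123 by limma). It had 2.65, 2.14 and 1.43 TPM in FCL, 1.00, 1.62 and 2.20 TPM in FCM, and 1.43, 1.84 and 1.76 TPM in FCH. C1R, its partner, had 1.92, 3.14 and 4.61 TPM in FFA, against 4.25, 2.38 and 2.55 TPM in NC, and changed by 0.04 (SE 0.25). SERPING1, the C1 inhibitor, averaged 0.901 TPM and changed by less than its SE of 0.22 in each comparison with FFA and in FFA against NC. C8G, a chain of the lytic complex, ranged between 0 and 1.36 TPM. The untested genes CFI, which cleaves C3b, and C5 averaged 0.057 and 0.033 TPM.

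Of the acute phase proteins, SERPINA3 (ENSG00000196136), alpha-1-antichymotrypsin, an inhibitor of neutrophil proteases, rose. It had 4.59, 4.01 and 5.01 TPM in FFA, against 2.63, 2.92 and 2.51 TPM in NC, a log2 change of 0.58 and an SE of 0.17 (limma, adjusted p = 0.0470). SERPINA3 had 6.79, 7.16 and 5.27 TPM in FCL, 4.97, 5.62 and 5.41 TPM in FCM, and 3.22, 5.15 and 4.45 TPM in FCH. No library given fatty acids reached down to the NC libraries. The changes against NC were 1.00 in FCL (adjusted p = 0.00180), 0.78 in FCM (adjusted p = 0.00855) and 0.50 in FCH, the last not called (adjusted p = 0.102). In FFA the call lay at the edge and was lost under 8 of 11 alternatives and without any 1 NC or FFA library, FCM replicate 1 or 2, FCH replicate 2 or FCH replicate 3 (adjusted p = 0.0754 without the last). In FCL it stood in all 11 alternatives that tested it and without any 1 library. In FCM it was lost under 1 of 11 alternatives and stood without any 1 library. FCL lay above FFA in all libraries, with a change of 0.41 that was not called (SE 0.17, adjusted p = 0.901).

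SERPINA1 (ENSG00000197249), alpha-1-antitrypsin, the inhibitor of neutrophil elastase and a marker of hepatocytes, had 11.2, 9.65 and 14.2 TPM in FFA, against 10.1, 7.33 and 6.95 TPM in NC, with overlap and a log2 change of 0.48 and an SE of 0.20 (limma, adjusted p = 0.175). It had 11.8, 13.7 and 14.1 TPM in FCL, 10.4, 7.76 and 13.6 TPM in FCM, and 10.1, 7.95 and 8.43 TPM in FCH. FCL against NC came nearest to a call, at 0.65 (adjusted p = 0.0535), with no overlap. ORM1, alpha-1-acid glycoprotein, had 1.43, 0.823 and 1.00 TPM in FFA, against 0.153, 0.463 and 0.243 TPM in NC, with no overlap and a change of 0.69 that was not called (SE 0.23, adjusted p = 0.0879). It had 1.51, 0.373 and 0.983 TPM in FCL, 0.343, 0.563 and 0.733 TPM in FCM, and 1.32, 0.583 and 0.858 TPM in FCH. Its near-identical copy ORM2 had 0.827 ± 0.265 TPM in FFA and 0.733 ± 0.142 TPM in NC (SD, n = 3 each), and how reads were divided between the copies is uncertain.

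CRP and SAA1, the acute phase proteins known for the largest rises in blood, did not pass the filter. CRP was at 0 in all libraries and SAA1 in 7 of 15, with 1.00 TPM at most for SAA1, in NC. SAA4, not known for such rises, was at 0 in 14 of 15. FGL1, a fibrinogen-like hepatokine, averaged 0.127 TPM and LBP, which binds bacterial lipopolysaccharide, 0.077 TPM.

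Signalling genes of the acute phase response were tested in 14 of 17 cases, at higher levels than the plasma proteins. In FFA against NC 4 rose and none fell, where 5.47% of all tested genes were called higher and 1.91% lower. CEBPD, a transcription factor induced in that response, had 107 ± 7.46 TPM in FFA and 39.0 ± 1.83 TPM in NC (SD, n = 3 each), a log2 change of 1.43 (adjusted p = 0.000131 by limma). CEBPB, a related factor, NFKBIZ, a nuclear partner of NF-kappa-B, and the kinase JAK1 rose by 0.79, 1.00 and 0.78. Of 27 alternatives, counting each library left out, 15 lost the JAK1 call, FCH replicate 3 left out among them (adjusted p = 0.0687). The calls of CEBPB and NFKBIZ were lost under 2 and 0. In FCM against FFA, where 1.83% of all tested genes were called lower and 0.0695% higher, no gene of this list but JAK1 was called. JAK1 fell, with 5.48 ± 0.440 TPM in FCM and 13.0 ± 1.16 TPM in FFA (log2 change -1.11, adjusted p = 0.0293). This call of JAK1 was lost under 9 of 27 alternatives, counting each library left out. Among the 9 were FCM replicate 3 left out (-1.17, adjusted p = 0.0679) and FCH replicate 3 left out (-1.11, adjusted p = 0.0519). JAK1 has a GC content of 46.2%, and GC-rich genes were relatively higher in FCM libraries than in FFA libraries. With each library's GC trend removed its change was -0.89 and called (adjusted p = 0.0282). None was called in FCL or FCH against FFA, where 1 and 3 of the 14 had an unadjusted p under 0.05, beside 5.15% and 15% of all tested genes. CEBPD, CEBPB and NFKBIZ were also called higher against NC in FCL, FCM and FCH, as were TNFRSF1A, a receptor of tumour necrosis factor, in FCL (0.56, adjusted p = 0.0135) and CEBPA in FCM (0.53, adjusted p = 0.0365). IL1RAP, a chain of the interleukin 1 receptor, was called lower in FCM against NC (-0.94, adjusted p = 0.0171). Without FCM replicate 3 the calls of NFKBIZ and CEBPA in FCM were lost (0.65 and 0.48, adjusted p = 0.0891 and 0.103), and without FCH replicate 3 those of CEBPA in FCM and CEBPB in FCH (0.53 and 0.69, adjusted p = 0.0575 and 0.0927). CEBPA and CEBPB have a GC content of 65.9% and 66.2%. With each library's GC trend removed, CEBPA in FCM and CEBPB in FCH were not called (0.32 and 0.47, adjusted p = 0.0663 and 0.0849). The other calls of this list against NC stood with GC trends removed, and further genes were called. TNFRSF1A and CEBPA were then called higher in FFA against NC, and IL1RAP lower in FCL and in FCH against NC. CEBPD was then called lower in FCH against FFA. The calls of CEBPA in FCM and of CEBPB in FCH against NC were each lost under 11 of 27 alternatives, counting each library left out. By the same count, the call of CEBPB in FCL against NC was lost under 9 and that of NFKBIZ in FCM under 7. STAT3 averaged 48.5 TPM, SOCS3, its feedback inhibitor, 61.8 TPM and the receptor IL6R 2.16 TPM, and none of them was called in any comparison, while the shared receptor chain IL6ST averaged 0.44 TPM and was not tested. Leukocyte markers moved in FFA against NC as well. CD68 had 181 ± 36.3 TPM in FFA and 57.7 ± 4.43 TPM in NC and rose by 1.61, and CSF1R rose by 0.87. The CSF1R call was lost under 17 of 26 alternatives, counting each library left out, whereas that of CD68 stood. Among the 17 were FCH replicate 3 left out (adjusted p = 0.0689) and any 1 NC or FFA library left out. GC trends removed was another (0.80, adjusted p = 0.0523). The summed level of the 5 leukocyte markers lay between 143 and 211 TPM in FFA and between 54.4 and 63.2 TPM in NC, nearly all of it CD68, with PTPRC and CD3E at or near 0. CD68 was called higher against NC in each C3R group too, and its part in the results for plasma proteins was not tested.

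The other inhibitors and matrix-binding proteins held the gene with the largest changes. SPINK1 (ENSG00000164266), a small secreted trypsin inhibitor known from the pancreas and also made by hepatocytes in inflammation and by hepatomas, had 5.43, 4.92 and 4.52 TPM in FCM, against 0.509, 1.89 and 1.10 TPM in FFA. All FCM libraries lay above all others of the study, and the log2 change in FCM against FFA was 1.51 (SE 0.31, adjusted p = 0.0298 by limma). SPINK1 had 4.29, 1.20 and 1.51 TPM in FCL and 1.44, 1.41 and 2.28 TPM in FCH, which overlapped with FFA (changes 0.56 and 0.36, adjusted p = 0.901 and 0.634). The order of the C3R groups was thus not that of the doses, and the difference between FCM and the other C3R groups was not tested.

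In NC, SPINK1 had 0.469, 0.00893 and 0.00893 TPM, and the last 2 are the least that the offset of its row allows. The change against NC was 0.87 in FFA (adjusted p = 0.105), 1.43 in FCL (adjusted p = 0.00966), 2.38 in FCM (adjusted p = 0.000236) and 1.23 in FCH (adjusted p = 0.0315), all by limma with an SE of 0.31. The call in FCM against NC stood in all 11 alternatives that tested it and without any 1 library. That in FCM against FFA did not, since it was lost under 5 of 11 alternatives. It was also lost without any 1 FCM library, without FFA replicate 1 or 3 and without FCH replicate 3 (log2 change between 1.27 and 1.74 without 1 library). Without FCM replicate 3 it was 1.56 (adjusted p = 0.0683), and without FCH replicate 3 it was 1.51 (adjusted p = 0.0501). The call in FCH against NC was lost under 3 of 11 alternatives, without any 1 FCH library (1.08 and adjusted p = 0.137 without replicate 3) and without NC replicate 2 or 3. That in FCL against NC was lost under 1 of 11 alternatives and stood without any 1 library. FCM libraries had relatively more RNA of genes rich in G and C than FFA libraries, with a rank correlation between GC content and deviation across genes of 0.301 to 0.562 in FCM and -0.406 to -0.205 in FFA, a description across genes that share a library. SPINK1 has a GC content of 39.1%, and with each library's GC trend removed its change was 1.93 and remained called (adjusted p = 0.0381).

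AMBP, the precursor of alpha-1-microglobulin and bikunin, averaged 3.38 TPM. It had 3.15, 2.72 and 3.93 TPM in FFA, against 3.38, 2.17 and 3.21 TPM in NC, and changed by at most 0.15 in the comparisons with FFA and in FFA against NC. AMBP had 3.82, 3.12 and 4.16 TPM in FCL, 3.48, 2.67 and 5.29 TPM in FCM, and 3.83, 2.59 and 3.19 TPM in FCH. VTN, vitronectin, which binds cell adhesion receptors, had 1.71, 1.31 and 2.08 TPM in FFA, against 2.99, 2.31 and 2.08 TPM in NC, and changed by -0.36 (SE 0.18, adjusted p = 0.262). It had 2.04, 2.01 and 2.58 TPM in FCL, 2.00, 1.79 and 1.50 TPM in FCM, and 1.19, 1.67 and 1.85 TPM in FCH, none of them called. SERPINF1, a serpin that acts against blood vessel growth, had 1.64, 0.826 and 3.43 TPM in FFA, against 0.606, 1.73 and 1.40 TPM in NC, with wide overlap. Its levels were 0.806, 1.33 and 1.25 TPM in FCL, 1.28, 1.21 and 1.10 TPM in FCM, and 1.83, 1.43 and 1.67 TPM in FCH. The heavy chains that join bikunin in the inter-alpha-inhibitor, ITIH1, ITIH2, ITIH3 and ITIH4, averaged 0.057, 0.226, 0.449 and 0.189 TPM and were not tested.

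**Figure D4:**
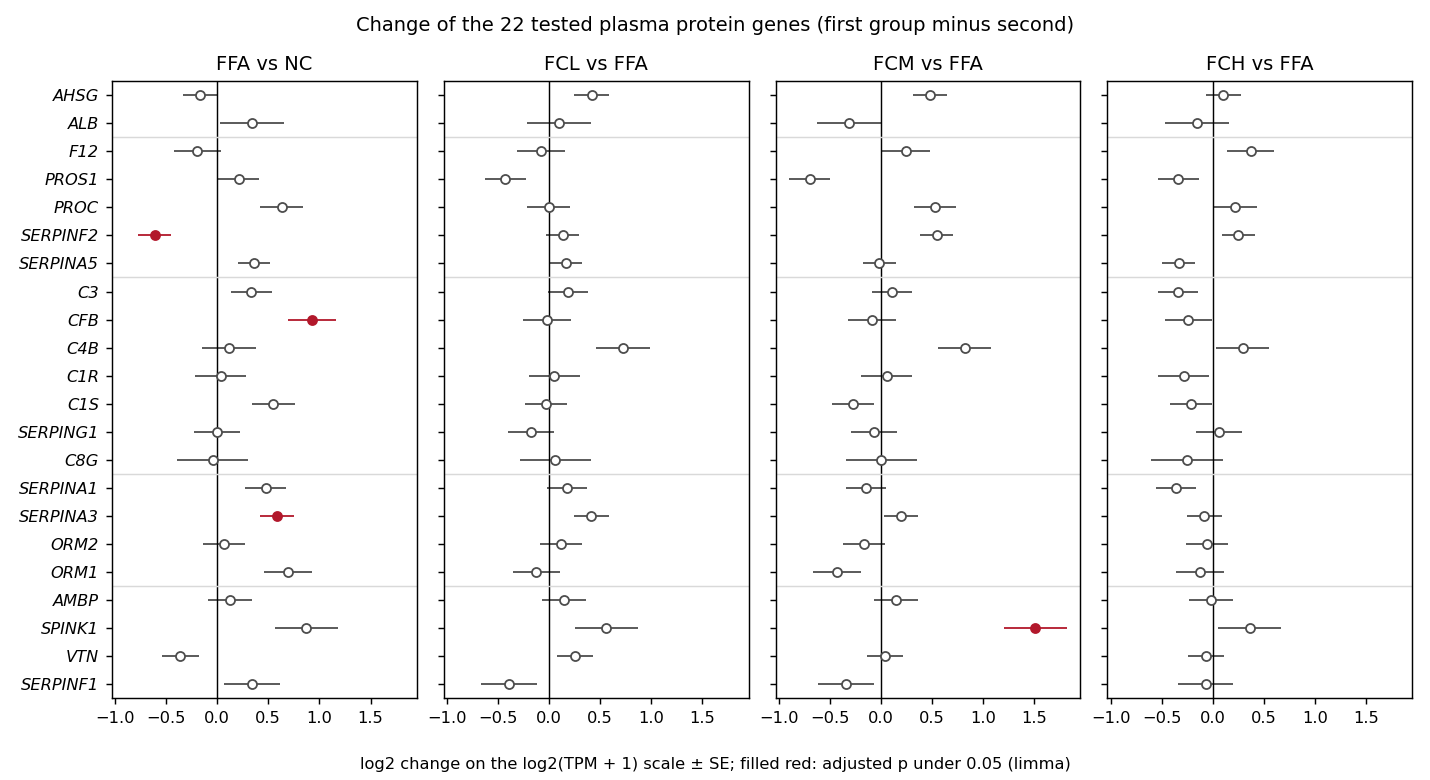
Change of the 22 tested plasma protein genes on the log2(TPM + 1) scale, with the log2 change ± SE on the horizontal axis and 1 row per gene, in FFA against NC and in FCL, FCM and FCH against FFA. Filled red points mark an adjusted p under 0.05, which are CFB, SERPINA3 and SERPINF2 in FFA against NC and SPINK1 at 1.51 in FCM against FFA.

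Among 50 further plasma proteins of the liver, 11 were tested, and 40 averaged under 1 TPM. C4BPB, the beta chain of C4b-binding protein, which binds protein S, was far above the rest and fell. It had 80.9 ± 2.55 TPM in FFA and 145 ± 11.6 TPM in NC (SD, n = 3 each), a log2 change of -0.83 and an SE of 0.10 (limma, adjusted p = 0.000133). Its level in FCL, FCM and FCH was 79.6 ± 6.69, 76.8 ± 4.76 and 76.8 ± 1.34 TPM, and it was called lower in each of the 3 against NC and in none against FFA. C4BPA, the alpha chain that forms most of the same protein in plasma, averaged 0.29 TPM. ANG, angiogenin, a secreted ribonuclease that shares its first exons with RNASE4, had 18.5 ± 2.08 TPM in FFA and 9.16 ± 1.98 TPM in NC and rose by 0.95 (adjusted p = 0.00463). IGFBP1, which binds insulin-like growth factors, was called higher against NC in FCL (0.88), FCM (1.05) and FCH (0.75), with 1.49 ± 0.61, 1.77 ± 0.35 and 1.23 ± 0.18 TPM, against 0.33 ± 0.15 TPM in NC. Of 26 alternatives, counting each library left out, 15 lost the call in FCH, FCH replicate 3 left out among them (adjusted p = 0.136). The calls in FCL and FCM were lost under 4 and 0. No gene of this list was called against FFA, and 1 of the 11 had an unadjusted p under 0.05 there, in FCM, beside 19.1% of all tested genes.

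Of 12 listed liver transcription factors, 10 averaged under 1 TPM. CEBPA and CEBPB are not in this list and were described with the signalling genes. FOXA1 and NR2F2 were the 2 tested, and neither was called in the 7 comparisons. At most 1 of the 2 had an unadjusted p under 0.05, beside 5.15% to 30.1% of all tested genes. FOXA1 averaged 5.62 TPM, FOXA2 0.05 TPM and HNF4A 0.27 TPM. Genes of the secretory machinery were all measured, with 32 of 32 tested and none averaging under 1 TPM. In FCM against FFA 5 of the 32 fell and none rose, where 1.83% of all tested genes were called lower and 0.0695% higher. SRP54, a protein of the signal recognition particle, which brings nascent secretory proteins to the endoplasmic reticulum, had 4.31 ± 0.39 TPM in FCM and 11.8 ± 1.98 TPM in FFA (log2 change -1.26, adjusted p = 0.0146 by limma). LMAN1, a cargo receptor for clotting factors V and VIII, fell by 1.13, and the vesicle coat genes SEC31A, SEC24D and SEC24A fell by 1.01, 0.90 and 0.82. Without FCM replicate 3, and likewise without FCH replicate 3, SRP54 alone stayed called (-1.22 and -1.26, adjusted p = 0.0310 and 0.0287). The SRP54 call was lost under 4 of 27 alternatives, counting each library left out. These were FFA replicate 1, FFA replicate 3 or FCM replicate 2 left out, and the fit on the 2 compared groups alone. The 5 genes have a GC content of 39.0% to 46.3%, against a median of 50.1% over all tested genes, in a comparison where GC-rich genes were relatively higher in FCM libraries. With each library's GC trend removed, SRP54 and SEC24D were called of the 5 (-0.89 and -0.65), LMAN1, SEC31A and SEC24A were not (-0.72, -0.79 and -0.40, adjusted p = 0.116, 0.0663 and 0.255), RPN2 was called lower as well, and the median change of the 32 was -0.18. Without that correction the median change of the 32 was -0.39, against -0.07 over all tested genes. In FFA against NC SRPRA, a subunit of the receptor of the signal recognition particle, rose by 0.62 and the cargo receptor SURF4 by 0.43, where 5.47% of all tested genes were called higher. Of 27 alternatives, counting each library left out, 12 lost the SURF4 call, FCH replicate 3 left out among them (adjusted p = 0.0675). The SRPRA call was lost under 3. None was called in FCL or FCH against FFA, where 5 and 13 of the 32 had an unadjusted p under 0.05, beside 5.15% and 15% of all tested genes. Against NC, FCL had 4 higher and 2 lower, FCM 8 lower (5 without FCM replicate 3, 4 without FCH replicate 3, and 4 beside 2 higher with GC trends removed) and FCH 1 lower, and SPCS1, a subunit of signal peptidase, was lower in all 3. Of all tested genes, 6.51%, 6.34% and 3.02% were called higher against NC in FCL, FCM and FCH, and 2.56%, 6.7% and 1.98% lower.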

How the data were processed

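RNA of 15 cultures was measured in 5 groups of 3 libraries, grouped by the sample titles. Per the labels, libraries were made with a stranded kit from oligo(dT)-selected RNA, and the authors aligned reads with HiSat2 to an Ensembl human genome and estimated expression with RSEM. The sources used here give no versions, annotation release or strand setting. The deposited values are TPM, with no counts, so depth is unknown.

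The plasma protein genes, the other lists and the tests were chosen with earlier results of these data known. Genes with at least 1 TPM in at least 3 libraries entered 1 model of log2(TPM + 1) with a mean per group (two-sided tests in limma 3.58.1 under R 4.3.3, eBayes with trend, Benjamini-Hochberg over 12950 genes), checked on simulated data. Sample values are given for genes called in any of 7 comparisons, the 10 highest, and the 2 with the largest change per class in FFA against NC and in FCM and FCH against FFA.

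All libraries but FCH replicate 3, 14 in number, showed in 12775 genes a constant offset from multiples of 0.01 TPM (tolerance 1e-06 of that unit). A batch adjustment inferred from it, which no source used here describes, left FCH replicate 3 with 41.6% of its deviation. Deposited values were used, and undoing the adjustment was an alternative. Others were the pseudocount, the filter, rescaling, array weights, a replicate block, a term for libraries 12 to 15, GC trends, fits on 2 groups and leaving out each library. GC content came from GENCODE transcripts and promoters from RefSeq.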

Additional observations from a re-analysis of the deposited data

How the results depend on the processing

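Of the calls among the 22 tested plasma protein genes, and of the 57 gene and comparison pairs called in the other lists, none reversed its direction under any alternative run or without any 1 library. Counts of called plasma protein genes moved as follows. A minimum mean of 5 TPM, which left 4 of them to test, gave 1 in FFA against NC (3 in the main model), 0 in FCM against FFA (1), and 2, 1 and 0 in FCL, FCM and FCH against NC (4, 5 and 2). Without a filter the counts were 0 in FCM against FFA, 3 in FCM against NC and 0 in FCH against NC. Array weights, estimated gene by gene since the other method did not converge, gave FCH replicate 3 a weight of 17.1 and raised the counts to 7 in FFA against NC, 4 in FCM and 4 in FCH against FFA, and 8, 8 and 6 in FCL, FCM and FCH against NC. Fits on the 2 compared groups alone gave 0 in FFA against NC, 0 in FCM against FFA, 1 in FCL against NC and 2 in FCM against NC. In FCM against FFA a pseudocount of 0.1 gave 0, median-of-ratios rescaling 3 and quantile normalization 2. A term for libraries 12 to 15 gave 0 in FCM against FFA, 3 in FCM against NC and 0 in FCH against NC, and removing GC trends gave 3 in FCM against NC. The minimum mean of 5 TPM tests fewer genes, leaving out the filter tests more, and the smaller fits use fewer samples. The cause of the moved counts was not tested. In FCL against FFA the count was 0 under every alternative run.

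Replicate numbers did not pair the libraries, since deviations of same-numbered libraries correlated between -0.171 and 0.154 and 0 libraries correlated best with their own number. With the replicate block the count was 0 in FCM against FFA and 1 in FCH against NC. Leaving out each library in turn gave 0 to 4 called genes in FFA against NC, 0 to 2 in FCM against FFA, 0 in FCL and FCH against FFA, 2 to 6 in FCL against NC, 3 to 5 in FCM against NC and 0 to 2 in FCH against NC. The count in FFA against NC was 0 without NC replicate 1 or 2 or FFA replicate 1 or 3, and 1 without NC replicate 3 or FCH replicate 3. In FCM against FFA it was 2 without NC replicate 1 or FCL replicate 2. In FCL against NC it was 2 without NC replicate 2 or FCL replicate 3, in FCM against NC 3 without NC replicate 2 or FCM replicate 3, and in FCH against NC 0 without NC replicate 2 or 3 or FCH replicate 2 or 3 and 1 without NC replicate 1 or FCH replicate 1. Most of these genes average a few TPM, and without read depth the counting error of such levels is unknown.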
